A study of Mus musculus with 6 samples.

Results

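Interferon-stimulated genes are the genes that a cell switches on when an interferon binds its receptor. The 39 described here are widely used readouts of that response. All 39 were listed among the 17891 genes with a symbol in the mouse heart muscle tables. They were chosen by name, with earlier results of these data known. RNA was sequenced from myocardium of C57BL/6 mice at 6 weeks of age, with 3 samples of wild type (WT) animals and 3 of NS-DADm animals. The latter have knock-in mutations, in the whole body, in the deacetylase activating domains (DADs) of nuclear receptor corepressors, NCOR among them, through which many transcription factors switch on the histone deacetylase HDAC3. The labels give the knock-in as whole-body and name no Cre driver and no treatment. The labels do not say whether a sample holds 1 mouse or several, so the p-values rest on the spread among the samples, which may be in part technical. The comparison asked how the levels of these genes differ between NS-DADm and WT myocardium, and how they vary between samples of the same genotype.

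Type I interferons act through the receptor encoded by Ifnar1 and Ifnar2, and type II interferon through that encoded by Ifngr1 and Ifngr2. JAK kinases at these receptors phosphorylate STAT proteins. STAT2 joins IRF9 in a complex, ISGF3, that binds the interferon-stimulated response element in promoters, while STAT dimers bind the gamma-activated site. The products of the genes sense foreign nucleic acids, block translation and degrade viral RNA, tag proteins with ISG15, or attack membranes of viruses and intracellular parasites. In heart muscle such genes are transcribed at a low level in unchallenged animals by muscle cells, endothelial cells and resident macrophages.

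Promoters were read for 29 of the 39 genes, from 34 windows of the RefSeq table for the mouse build GRCm38.p6, each reaching from 250 bases before to 50 after an annotated transcription start. The response element core was searched as GAAANNGAAA, which is TTTCNNTTTC on the other strand, and the gamma-activated site as TTCNNNGAA, which reads the same on both strands. The sequences below show stretches before the start of genes the results return to, with matches of the response element core in capitals. Matches may overlap, as in Isg15, Irgm1 and the other genes with long runs of capitals.

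Isg15 (chr4:156200851-156200920, minus strand): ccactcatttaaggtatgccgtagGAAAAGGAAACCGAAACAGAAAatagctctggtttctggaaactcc
Ifit1 (chr19:34640765-34640834, plus strand): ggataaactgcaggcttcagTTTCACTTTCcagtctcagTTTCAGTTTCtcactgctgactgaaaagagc
Oas1a (chr5:120907526-120907595, minus strand): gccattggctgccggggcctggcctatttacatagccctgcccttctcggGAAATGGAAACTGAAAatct
Gbp2 (chr3:142620574-142620643, plus strand): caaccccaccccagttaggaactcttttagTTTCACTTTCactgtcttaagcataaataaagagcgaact
Igtp (chr11:58199486-58199555, plus strand): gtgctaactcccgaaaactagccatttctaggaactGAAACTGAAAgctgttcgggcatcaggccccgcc
Irgm1 (chr11:48871421-48871490, minus strand): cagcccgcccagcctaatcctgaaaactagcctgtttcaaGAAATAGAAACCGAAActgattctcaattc
Stat2 (chr10:128270248-128270317, plus strand): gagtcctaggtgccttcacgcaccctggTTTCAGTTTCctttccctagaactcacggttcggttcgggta

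Of the 29 genes, 17 (58.6%) held the response element core in a window, against 3.99% of the 27025 genes with a window in the table and 3.78% of the 10037 such genes tested for expression here. The gamma-activated site was found in 8 of the 29 (27.6%), against 9.55% of all genes with a window. There were 26 matches of the response element core. Of these, 22 lay before the start, 15 of them within 100 bases of it, and 4 lay at or after it. With the core required to go on with CT, as GAAANNGAAACT, 10 of the 29 genes (34.5%) had a match, against 0.303% of all genes with a window. The 17 genes with the core had a median log2 fold change of 0.27 between NS-DADm and WT (range 0.07 to 0.91), and the 12 without it 0.23 (range -0.11 to 0.77), so the ranges overlapped.

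**Figure D1:**
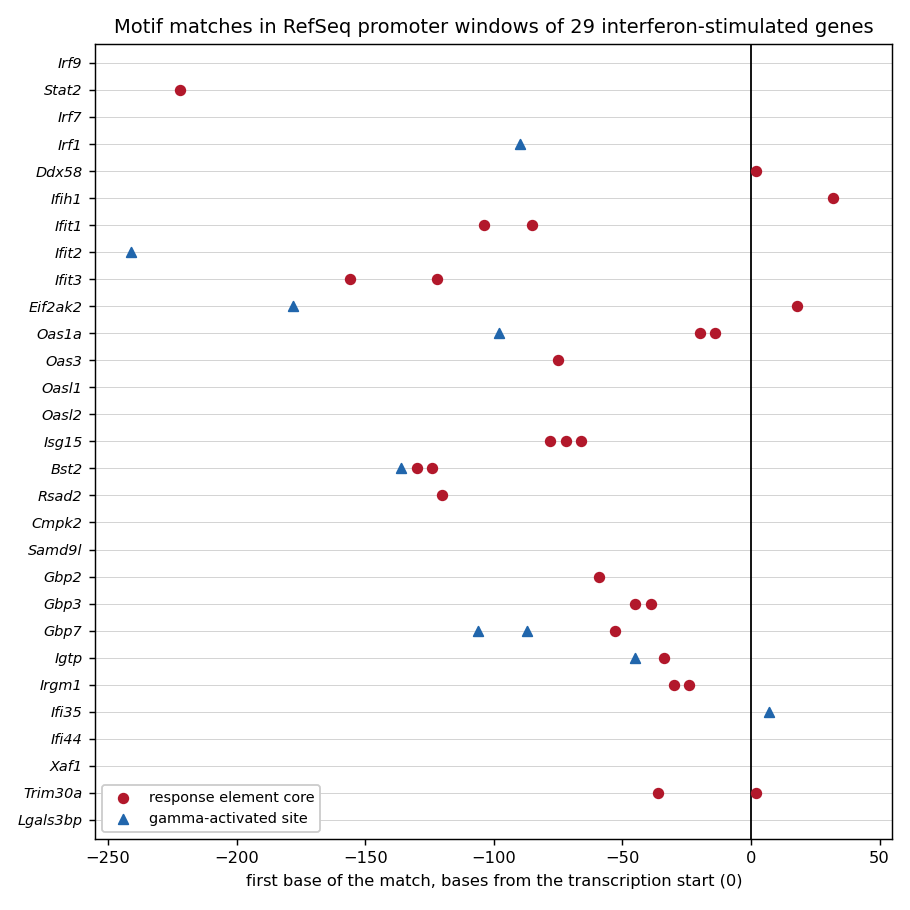
Position of each motif match in the RefSeq promoter windows of the 29 genes, in bases from the transcription start (vertical line at 0, negative before the start). Red circles mark the response element core and blue triangles the gamma-activated site; a gene with no mark had neither, and most circles lie within 100 bases before the start.

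Irf9 and Lgals3bp, both of which are called changed below, had no match of the core in their windows. For them the 100 bases before the start are shown, for each of the starts annotated for Irf9, in lower case throughout because no match was found. This says only that these letters are absent from the windows. Ifi27, the other gene called changed, had no entry in the table.

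Irf9, first start (chr14:55603885-55603984, plus strand): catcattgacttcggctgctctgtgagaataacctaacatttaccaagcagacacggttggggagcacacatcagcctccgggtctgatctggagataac
Irf9, next start (chr14:55604479-55604578, plus strand): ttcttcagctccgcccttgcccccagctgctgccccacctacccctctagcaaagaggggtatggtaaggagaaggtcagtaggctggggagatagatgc
Lgals3bp (chr11:118401960-118402059, minus strand): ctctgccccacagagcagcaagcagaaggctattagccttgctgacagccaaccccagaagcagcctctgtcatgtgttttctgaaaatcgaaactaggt

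Levels are FPKM, the authors' read counts scaled by gene length and library size, so they can be compared between genes. Total expected counts, the authors' estimated reads per library, were 10183792 to 11205221 in WT and 12262523 to 12758311 in NS-DADm, so every NS-DADm library was deeper. A gene was tested with edgeR's quasi-likelihood test on those counts and is called changed when its p-value, adjusted by the Benjamini-Hochberg method over all 13130 tested genes, is under 0.05. The levels of Ncor1, a targeted gene, and of Hdac3 did not pass. Ncor1 was at 22.9 ± 1.15 FPKM in the WT and 24.3 ± 1.01 in the NS-DADm samples (SD, n = 3), and Hdac3 at 29.8 ± 2.02 and 29.8 ± 0.804 (adjusted p = 0.432 and 0.884, edgeR). A change within the protein need not alter these levels, so they do not check the labels. Heart muscle markers were abundant in every sample, with Myl2, which encodes ventricular myosin light chain, at 15371.1 to 21252.9 FPKM. The summed level of 6 atrial muscle markers varied widely within each group, from 271 to 4691 FPKM in WT and from 574 to 6585 in NS-DADm.

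Lgals3bp, Ifi27 and Irf9 rose in NS-DADm. That is 3 of the 38 that could be tested, against 1.79% of all tested genes called higher, and 0 of the 38 were called lower, against 1.41% of all tested genes. At an unadjusted p under 0.05, 10 of the 38 were higher and 0 lower, against 9.41% and 8.64% of all tested genes. The median log2 fold change of the 38 was 0.24, against -0.0031 over all tested genes, and the fitted change was positive in 35, against 49.3% of all tested genes, and negative in 3. In 11 of the 38 every NS-DADm sample was above every WT sample, against 8.94% of all tested genes, and in 0 of the 38 was every WT sample above every NS-DADm sample, against 14.5%. Without WT 1, WT 3 or NS-DADm 1 the number called higher was 1, and without WT 2 it was 0. DESeq2's Wald test called 4 genes higher and 0 lower, and limma on log2(FPKM + 1) called 1 higher and 0 lower. In bulk tissue, a change in the number of cells of a type and a change in RNA per cell cannot be told apart.

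**Figure D2:**
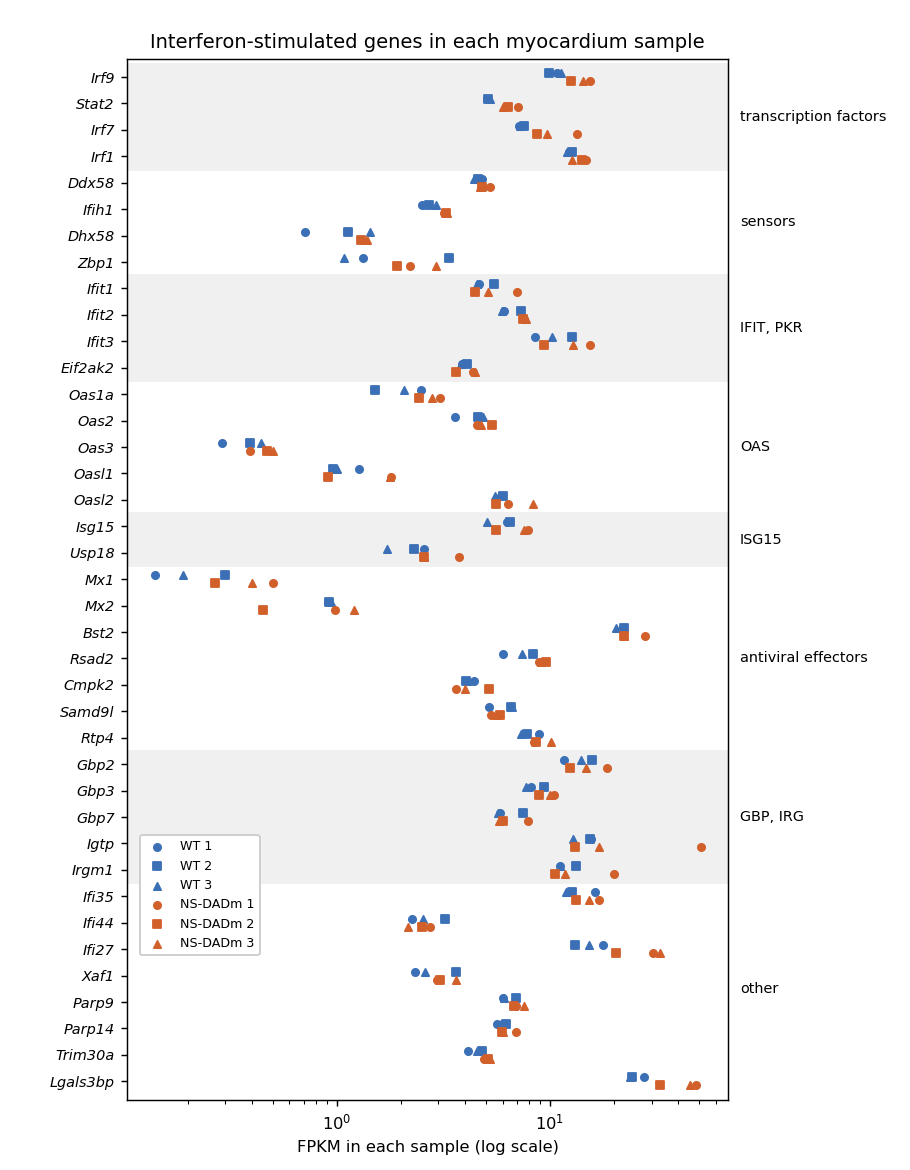
FPKM (log scale) of the 39 genes in each of the 6 samples, grouped by role, with WT in blue and NS-DADm in orange and the sample number given by the shape. For Lgals3bp, Ifi27, Irf9, Stat2 and Irf7 all orange points lie to the right of all blue points, while for most genes the groups overlap.

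**Figure D3:**
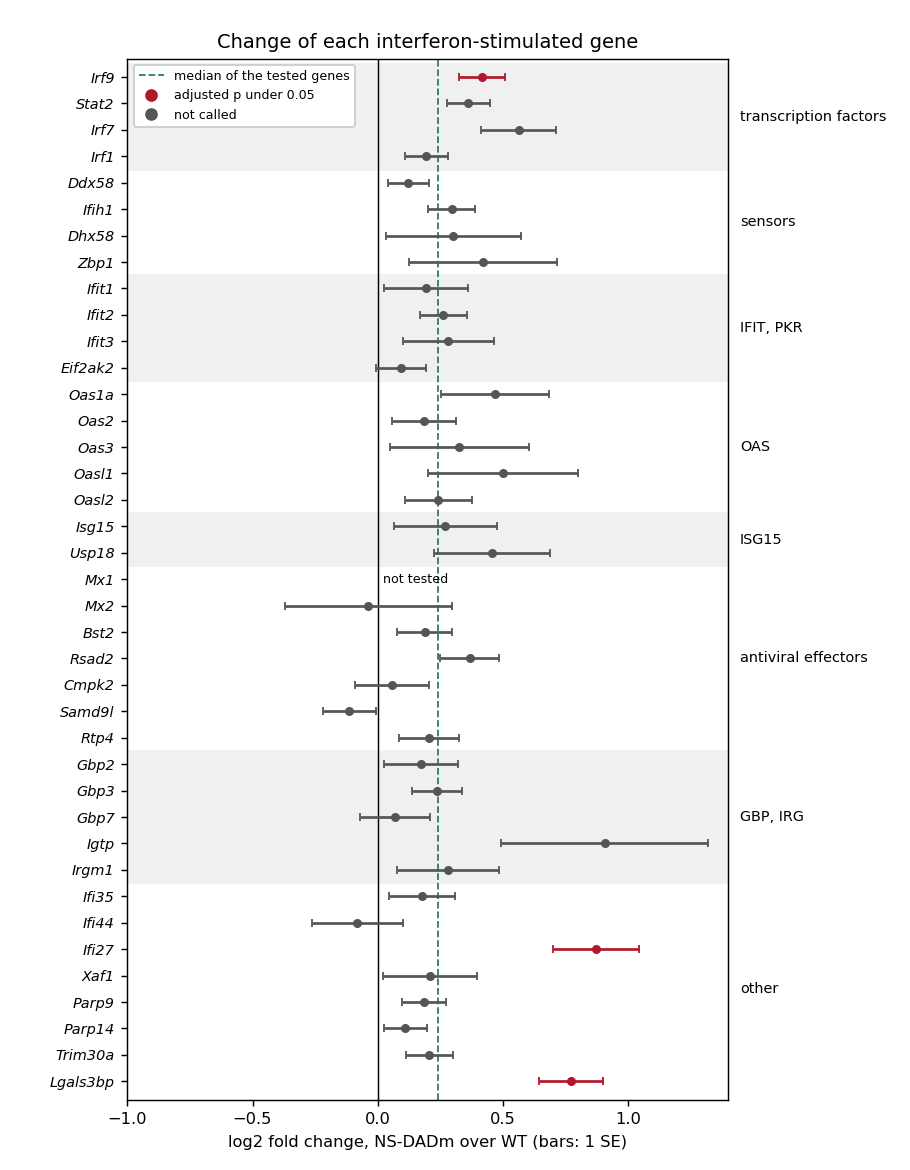
Log2 fold change of each gene, NS-DADm over WT, with bars of 1 standard error from edgeR; red marks an adjusted p under 0.05 and the dashed line the median of the 38 tested genes, 0.24. Most points lie to the right of 0, but the bars of most reach close to 0 or across it, and Mx1 was too low to be tested.

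The transcription factors of the pathway were the role in which the groups separated in every gene. Irf9 (gene ID 16391), the DNA-binding subunit of ISGF3, had an FPKM of 10.80, 9.91 and 11.31 in WT 1, 2 and 3 and of 15.50, 12.61 and 14.24 in NS-DADm 1, 2 and 3. The lowest NS-DADm sample stood above the highest WT sample, and Irf9 rose 1.33-fold (log2 fold change 0.42, SE 0.09, adjusted p = 0.0389, edgeR). It lost its call without any sample other than NS-DADm 2, with the atrial score as a covariate and with limma on either log scale (adjusted p up to 0.153), while the fold change stayed between 0.34 and 0.48 on the log2 scale. Stat2, its partner in ISGF3, was at 5.06, 5.12 and 5.24 FPKM in WT and 7.11, 6.37 and 6.01 in NS-DADm. The WT samples were within a narrow band below all NS-DADm samples, and the test was just missed (log2 fold change 0.36, SE 0.09, adjusted p = 0.0539, edgeR). Without NS-DADm 3, with no filter on low counts or with a minimum mean FPKM of 1, Stat2 was called (adjusted p down to 0.0417 over all 14 alternatives).

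Irf7, which drives transcription of type I interferon genes and is itself induced by interferon, was at 7.16, 7.59 and 7.21 FPKM in WT and 13.43, 8.74 and 9.69 in NS-DADm. NS-DADm 1 was well above the rest, and the gene did not pass (log2 fold change 0.56, SE 0.15, adjusted p = 0.0792, edgeR). Without NS-DADm 1 its log2 fold change was 0.37, and it was called with no filter on low counts and by DESeq2's Wald test (adjusted p down to 0.0319 over all 14 alternatives). Irf1, a factor induced above all by type II interferon, was at 12.33, 12.71 and 11.98 FPKM in WT and 14.81, 14.11 and 12.72 in NS-DADm. The groups only just separated, with NS-DADm 3 level with WT 2, and Irf1 was not called (log2 fold change 0.19, SE 0.09, adjusted p = 0.272, edgeR). The summed level of the 4 factors was 35.3 to 35.7 FPKM in WT and 41.8 to 50.9 in NS-DADm.

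None of the 4 sensors of foreign nucleic acid was called. Ifih1, which encodes the double-stranded RNA sensor MDA5, was at 2.52, 2.70 and 2.91 FPKM in WT and 3.20, 3.26 and 3.30 in NS-DADm. The groups did not overlap and the NS-DADm samples were nearly equal, with an adjusted p of 0.127 (log2 fold change 0.30, SE 0.09, edgeR). Ddx58, which encodes RIG-I, Dhx58, which encodes LGP2, and Zbp1, a sensor of Z-form nucleic acid, overlapped between the groups, with log2 fold changes of 0.12, 0.30 and 0.42. Zbp1 was the most scattered of them, at 1.33, 3.35 and 1.08 FPKM in WT and 2.20, 1.91 and 2.93 in NS-DADm.

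The IFIT genes, whose products bind foreign RNA and halt its translation, and Eif2ak2, which encodes the kinase PKR, were not called either. Ifit2 was at 6.08, 7.29 and 5.96 FPKM in WT and 7.59, 7.52 and 7.70 in NS-DADm. Its NS-DADm samples lay together above a WT group that WT 2 stretched upward (log2 fold change 0.26, SE 0.09, adjusted p = 0.176, edgeR). Ifit1 and Ifit3, which carry 2 matches each of the response element core, overlapped between the groups, with log2 fold changes of 0.19 and 0.28. Among the WT samples WT 2 was highest in all 4 genes of this role.

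All 5 genes of the OAS family, enzymes that make the oligoadenylates by which RNase L is activated and their OAS-like relatives, had positive log2 fold changes, from 0.19 for Oas2 to 0.50 for Oasl1. None was called, and in all 5 the groups overlapped (smallest adjusted p = 0.290, for Oas1a, edgeR). Of the ISG15 system, Isg15, the ubiquitin-like protein that is conjugated to new proteins, was at 6.28, 6.50 and 5.05 FPKM in WT and 7.86, 5.61 and 7.59 in NS-DADm. NS-DADm 2 fell inside the WT range, and the change was within the spread (log2 fold change 0.27, SE 0.20, adjusted p = 0.536, edgeR). Usp18, which removes ISG15 and restrains the type I receptor, had a log2 fold change of 0.46 (SE 0.23) with an adjusted p of 0.337 (edgeR).

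Among the antiviral effectors the median log2 fold change of the 6 tested, 0.12, was the lowest of the roles. Bst2, or tetherin, which holds budding virus at the cell surface, was at 22.08, 22.24 and 20.52 FPKM in WT and 27.91, 22.18 and 22.29 in NS-DADm. NS-DADm 1 stood well above the WT samples and the other NS-DADm samples beside them (log2 fold change 0.19, SE 0.11, adjusted p = 0.409, edgeR). Rsad2, or viperin, which makes a chain-terminating nucleotide, was at 6.00, 8.37 and 7.40 FPKM in WT and 8.85, 9.63 and 9.13 in NS-DADm. The groups were separate but the WT samples varied, and Rsad2 was not called (log2 fold change 0.37, SE 0.12, adjusted p = 0.129, edgeR).

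Samd9l and Mx2, of the same role, had negative fitted changes and were not called. Samd9l, an inhibitor of translation, was at 5.19, 6.60 and 6.63 FPKM in WT and 5.27, 5.84 and 5.63 in NS-DADm, with a log2 fold change of -0.11 (SE 0.11, adjusted p = 0.631, edgeR). Mx2, of the family of dynamin-like GTPases, was listed only as the non-coding transcript model NR_003508. It was at 0.91, 0.92 and 0.94 FPKM in WT and 0.98, 0.45 and 1.21 in NS-DADm. The WT samples were nearly equal and the NS-DADm samples lay on both sides of them, with a log2 fold change of -0.04 (SE 0.33, adjusted p = 0.971, edgeR) that turned to 0.26 without NS-DADm 2. Mx1, its relative, was too low to be tested, at 0.14, 0.30 and 0.19 FPKM in WT and 0.50, 0.27 and 0.40 in NS-DADm. Cmpk2, a mitochondrial nucleotide kinase, and Rtp4 had log2 fold changes of 0.06 and 0.21, and their groups overlapped.

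The guanylate-binding proteins (Gbp2, Gbp3 and Gbp7) and the immunity-related GTPases (Igtp and Irgm1) act on the vacuoles of intracellular parasites and bacteria and respond strongly to type II interferon. None of the 5 was called, and in all 5 NS-DADm 1 was the highest of the NS-DADm samples. Igtp was at 15.60, 15.39 and 12.89 FPKM in WT and 51.03, 13.12 and 16.92 in NS-DADm. NS-DADm 1 was 3.02 times the highest other sample, NS-DADm 2 and NS-DADm 3 lay at or near the WT levels, and the change did not pass (log2 fold change 0.91, SE 0.41, adjusted p = 0.282, edgeR). Without NS-DADm 1 the log2 fold change of Igtp was 0.06 (adjusted p = 0.867, edgeR).

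Irgm1, named here after its values were seen, had the same shape at 11.16, 13.22 and 11.13 FPKM in WT and 20.03, 10.60 and 11.84 in NS-DADm. Gbp2 was at 11.65, 15.80 and 13.93 FPKM in WT and 18.60, 12.49 and 14.84 in NS-DADm. Its groups overlapped (log2 fold change 0.17, SE 0.15, adjusted p = 0.590, edgeR), and the log2 fold change was 0.01 without NS-DADm 1. Gbp3 was at 8.12, 9.42 and 7.77 FPKM in WT and 10.42, 8.88 and 10 in NS-DADm, with NS-DADm 2 below WT 2 (log2 fold change 0.24, SE 0.10, adjusted p = 0.245, edgeR).

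Outside these roles, Lgals3bp and Ifi27 were called and were also among the most abundant genes of the set. Lgals3bp (gene ID 19039), which encodes a secreted glycoprotein that binds galectins, was at 27.56, 24.18 and 23.69 FPKM in WT and 48.44, 32.80 and 45.60 in NS-DADm. All NS-DADm samples were above all WT samples, NS-DADm 2 by the least, and Lgals3bp rose 1.71-fold (log2 fold change 0.77, SE 0.13, adjusted p = 0.0125, edgeR). It was called under 13 of 14 alternatives and lost its call without WT 2 (adjusted p = 0.0717). Ifi27 (gene ID 52668), which encodes a small mitochondrial membrane protein, was at 17.83, 13.08 and 15.28 FPKM in WT and 30.55, 20.40 and 32.95 in NS-DADm. NS-DADm 2 was again nearest to WT, and Ifi27 rose 1.83-fold (log2 fold change 0.87, SE 0.17, adjusted p = 0.0252, edgeR). It lost its call with limma on either log scale and without each sample except NS-DADm 2 (the adjusted p reached 0.118), and its log2 fold change stayed between 0.70 and 1.05.

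The rest of the set was not called. Ifi44 was at 2.25, 3.21 and 2.53 FPKM in WT and 2.75, 2.50 and 2.17 in NS-DADm, with groups that overlapped (log2 fold change -0.08, SE 0.18, adjusted p = 0.862, edgeR). Ifi35, Xaf1, Parp9, Parp14 and Trim30a had log2 fold changes from 0.11 to 0.21, and of these only Trim30a, at 4.12 to 4.81 FPKM in WT and 4.92 to 5.24 in NS-DADm, had groups that did not overlap. The 35 genes of the set that were tested and not called had a median log2 fold change of 0.21. In 13 of the 39 genes, Ifit1, Ifit3, Gbp3, Gbp7 and Igtp among them, an expected count was not whole in at least 1 sample, as happens where reads are divided between similar or overlapping genes, so their values are less certain. The counts of Irf9, Ifi27 and Lgals3bp were whole.

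Counts assigned to single transcripts did not settle which models carried these changes. The 39 genes had 54 listed transcript models, 30 genes with 1 model and 9 with several. Of the 47 models tested, 0 were called in either direction by edgeR. Over all 17498 tested transcripts 0.0514% were called higher and 0.0457% lower. The model NM_194067 of Ifi27 was at 2.15, 2.35 and 2.69 FPKM in WT and 4.99, 6.87 and 6.02 in NS-DADm, and the more abundant NM_026790 at 14.29, 10.73 and 12.59 in WT and 23.94, 13.12 and 25.42 in NS-DADm. Unlike the gene as a whole, the lesser model was highest in NS-DADm 2 (log2 fold changes 1.33 and 0.75, adjusted p = 0.169 and 0.388, edgeR).

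The genes also varied between samples of the same genotype, more of them being high in some samples than in others. On the log2 CPM scale (counts scaled to library size), 21 of the 38 tested genes (55.3%) were highest among the NS-DADm samples in NS-DADm 1, 7 in NS-DADm 2 and 10 in NS-DADm 3, while over all tested genes the shares were 32.7%, 33.4% and 34.0%. Among the WT samples, 21 of the 38 (55.3%) were highest in WT 2, 10 in WT 1 and 7 in WT 3, against 31.4%, 32.1% and 36.6% of all tested genes. The median deviation of the 38 genes from their group mean was 0.13 in NS-DADm 1, -0.10 in NS-DADm 2 and -0.0017 in NS-DADm 3, and 0.09 in WT 2, -0.04 in WT 1 and -0.05 in WT 3. For comparison, the median difference between the genotypes was 0.24. By role, NS-DADm 1 was highest in all 5 GBP and IRG genes (median deviation 0.29) and in all 4 transcription factors (0.13), but in 1 of 6 antiviral effectors. The 5 red cell markers, Hbb-bs and Hba-a1 among them, had the same order of NS-DADm medians as the 38 genes. All 5 were highest in NS-DADm 1 (median deviation 0.47) and lowest in NS-DADm 2 (-0.47). Of 6 markers of pericytes and smooth muscle, 5 were highest in NS-DADm 1 (0.15), but their median was lowest in NS-DADm 3 (-0.12). All 6 fibroblast markers and all 6 atrial markers were lowest in NS-DADm 2. Of the fibroblast markers 3 were highest in NS-DADm 1, and all 6 atrial markers were highest in NS-DADm 3. Among the WT samples all 5 red cell markers were highest in WT 1, not in WT 2. The 2 tested B cell markers, at no more than 1.54 FPKM, were both highest in WT 2 (0.31). Their NS-DADm medians were 0.44 in NS-DADm 1, 0.17 in NS-DADm 3 and -0.61 in NS-DADm 2, again the order of the 38 genes. Ccr2, the only monocyte marker tested, was highest in NS-DADm 1 (0.48) and lowest in NS-DADm 2 (-0.84), with WT 2 and WT 3 level at 0.13. The part of these cells in the order of the interferon-stimulated genes was not tested. The median log2 fold change of the set without NS-DADm 1 was 0.22, with 1 gene called higher, Lgals3bp.

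**Figure D4:**
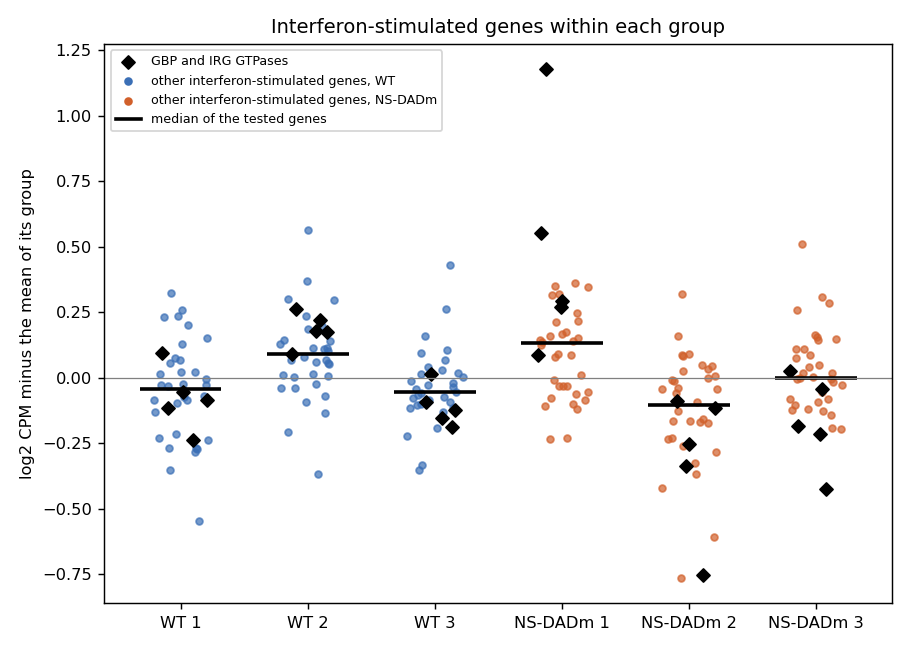
Deviation of each of the 38 tested genes from the mean of its group (log2 CPM) in each sample; black diamonds are the 5 GBP and IRG genes, coloured points the others and bars the medians. The medians of WT 2 (0.09) and NS-DADm 1 (0.13) lie above 0, and the diamonds of NS-DADm 1 are all above 0.

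Upstream of these genes, transcripts of interferons themselves were at or near the detection limit. Of 13 ligand genes looked for, 10 were listed in no sample, and Ifnk, Ifnz and Ifng reached at most 0.27 FPKM in any sample, with Ifng at 0, 1 and 0 counts in WT and 2, 0 and 0 in NS-DADm. A count of 3, for a gene of 1 kilobase, corresponds to 0.235 to 0.295 FPKM, so these values rest on a few reads at most and differences at such levels were not detectable at this depth. The receptor genes were expressed and not called. Ifnar1 was at 4.96, 5.22 and 5.74 FPKM in WT and 5.35, 5.30 and 5.35 in NS-DADm, and Ifnar2 at 30.43 to 32.74 and 31.85 to 33.49. Ifngr1 was at 30.93, 31.42 and 31.92 FPKM in WT and 33.52, 35.46 and 34.90 in NS-DADm, without overlap (log2 fold change 0.16, SE 0.06, adjusted p = 0.212, edgeR). Ifngr2, the more abundant chain, overlapped at 141.3 to 171.9 FPKM in WT and 132.4 to 144.6 in NS-DADm (log2 fold change -0.18), and the type III receptor gene Ifnlr1 was at most 1.53 FPKM in any sample.

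Of the 18 genes of receptors and JAK-STAT signalling, 2 were called higher and 0 lower, against 1.79% and 1.41% of all tested genes. Stat3, which carries signals of many cytokines, was at 33.51, 33.22 and 33.50 FPKM in WT and 39.61, 38.31 and 40.08 in NS-DADm. Both groups were tight and apart, and Stat3 rose with a log2 fold change of 0.26 (SE 0.05, adjusted p = 0.0331, edgeR). Ptpn6, a phosphatase that damps receptor signalling and is known mainly from blood-lineage cells, was at 2.64, 1.74 and 2.52 FPKM in WT and 4.43, 3.68 and 4.01 in NS-DADm, with a log2 fold change of 0.83 (SE 0.18, adjusted p = 0.0386, edgeR). Each lost its call when any 1 of the 6 samples was left out and with limma, and Ptpn6 also with the atrial covariate (adjusted p up to 0.125 for Stat3 and 0.132 for Ptpn6). Ptpn2, a phosphatase of JAK and STAT proteins, was at 8.67, 9.32 and 8.17 FPKM in WT and 8.74, 8.28 and 8.80 in NS-DADm. These levels overlapped, while its log2 fold change on counts was -0.19 (adjusted p = 0.205, edgeR). Under the alternatives that change came as near to none as -0.016.

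None of the 9 genes of other interferon regulatory factors and IRF2-binding proteins (Irf2bp1, Irf2bp2 and Irf2bpl) was called. The 17 sensing adaptors and kinases tested were not called either. Irf8, a factor of macrophages and dendritic cells, was at 2.40, 2.50 and 2.46 FPKM in WT and 4.28, 2.92 and 3.80 in NS-DADm, with a log2 fold change of 0.60 (SE 0.16, adjusted p = 0.0818, edgeR). Irf5, also of the myeloid lineage, was at 2.18, 2.26 and 1.57 FPKM in WT and 3.64, 2.95 and 2.74 in NS-DADm, with a log2 fold change of 0.65 (SE 0.20, adjusted p = 0.110, edgeR). Neither overlapped between the groups, and Irf8 was called without NS-DADm 2 (adjusted p 0.0437 to 0.237 over the alternatives, edgeR, DESeq2 or limma). Irf2bpl, Tlr7, Tlr9 and Ticam1 had log2 fold changes of 0.29, 0.45, 0.83 and 0.27 and adjusted p-values of 0.111, 0.339, 0.288 and 0.183 (edgeR).

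A wider list of 54 other interferon-stimulated genes, of which 46 could be tested, had 0 genes called higher and 1 called lower, close to the shares of all tested genes (1.79% and 1.41%). Its median log2 fold change was 0.07, against 0.24 for the 38 genes above. Tgtp2, an immunity-related GTPase, fell from 7.82, 11.53 and 7.84 FPKM in WT to 6.34, 3.40 and 4.15 in NS-DADm, with a log2 fold change of -0.95 (SE 0.22, adjusted p = 0.0498, edgeR). It is a near-copy of Tgtp1, which was at 4.30, 6.69 and 3.64 FPKM in WT and 6.18, 5.05 and 4.0 in NS-DADm, so the division of reads between them is uncertain. Tgtp2 lost its call with limma, with the atrial covariate and when any sample but NS-DADm 1 was left out (adjusted p up to 0.191). Gbp6 was at 13.65, 16.96 and 17.46 FPKM in WT and 37.23, 21.17 and 22.56 in NS-DADm, where NS-DADm 1 was again the highest (log2 fold change 0.77, SE 0.19, adjusted p = 0.0596, edgeR). Gbp6 was called without NS-DADm 2 or NS-DADm 3, and without NS-DADm 1 its log2 fold change was 0.47 (adjusted p = 0.0788). Irgm2, named after its values were seen, was at 11.47, 13.51 and 11.54 FPKM in WT and 31.05, 11.80 and 13.52 in NS-DADm, the same shape as its relatives Igtp and Irgm1. Ifi204, a DNA-binding protein of myeloid cells, was at 3.50 to 4.49 FPKM in WT and 5.16 to 6.01 in NS-DADm, with a log2 fold change of 0.58 (SE 0.14, adjusted p = 0.0581, edgeR), and was called without WT 3. In this wider list 27 of the 46 genes (58.7%) were highest in NS-DADm 1 among the NS-DADm samples and 25 (54.3%) in WT 2 among the WT samples.

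**Figure D5:**
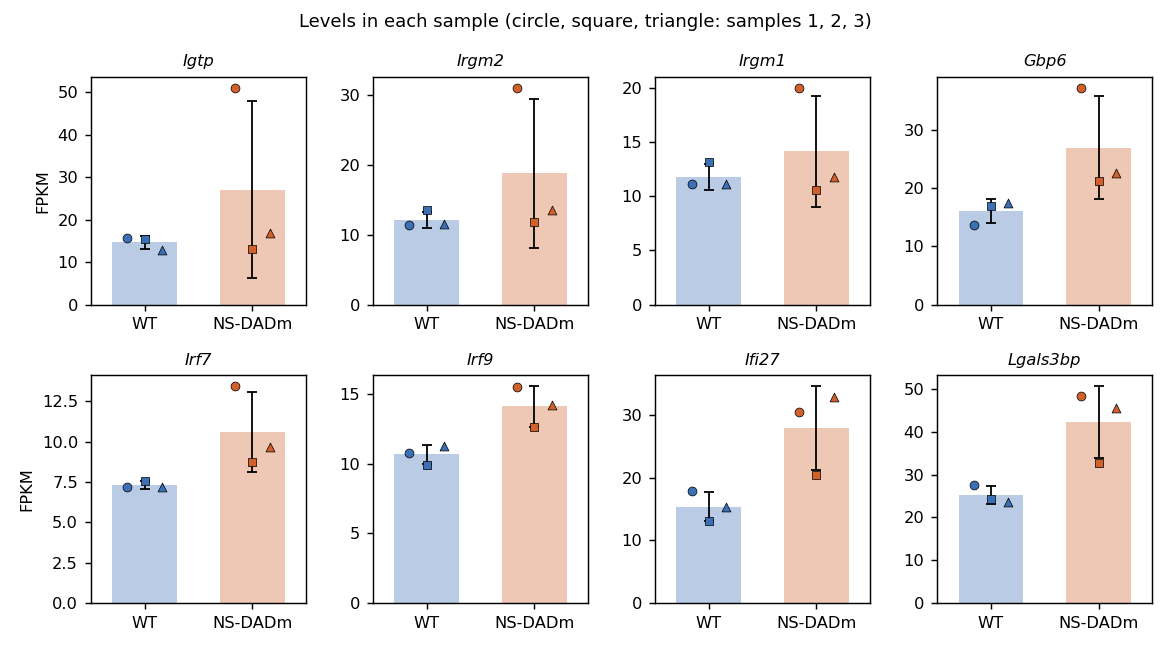
FPKM of 8 genes in each sample, with bars for the mean of 3 samples and error bars of 1 SD. NS-DADm 1 is the highest sample for every gene shown except Ifi27, where NS-DADm 3 is highest. For Gbp6, Irf7, Irf9, Ifi27 and Lgals3bp all NS-DADm samples lie above all WT samples.

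Markers of macrophages were also higher in NS-DADm. Of 12 such genes, C1qa and Csf1r among them, 6 were called higher, against 1.79% of all tested genes, and 11 had every NS-DADm sample above every WT sample, against 8.94%. Their summed level was 218 to 230 FPKM in WT and 298 to 331 in NS-DADm, and their median log2 fold change was 0.44. Their part in the levels of Lgals3bp, Ifi27, Irf9, Ptpn6, Irf5 and Irf8 was not tested. Among the WT samples their summed level was lowest in WT 2, where 21 of the 38 interferon-stimulated genes were highest. Among the NS-DADm samples it was highest in NS-DADm 1, at 331 FPKM, but NS-DADm 3 was close to it at 327. Markers of lymphocytes, which can release interferons, were low, with the 7 listed T and NK cell markers summing to 1.46 to 4.6 FPKM in WT and 1.01 to 2.30 in NS-DADm, and the 4 B cell markers to 1.52 to 2.66 and 1.34 to 3.08. The 4 markers of plasmacytoid dendritic cells summed to 43.1 to 47.8 FPKM in WT and 41.1 to 48.6 in NS-DADm. Nearly all of that came from Bst2 and Tcf4, which other cells also express, while Siglech and Ccr9 were at no more than 0.23 and 0.07 FPKM. Of the T and NK cell markers, Cd3e was at 0 in WT 1, NS-DADm 1 and NS-DADm 2.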

How the data were processed

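RNA-seq of myocardium was available for 3 WT and 3 NS-DADm samples, and replicate numbers come from the sample titles. The authors deposited an expected count, the estimated reads of a gene or transcript, and an FPKM, that count scaled by length and library size, for each sample, per the file headers. HISAT, an aligner, is named without a version in the submitters' processing notes, and for the estimator, build and annotation the name is not given in the sources used here. Expected counts were not whole for 10.8% to 11.6% of a sample's genes. The lowest FPKM listed was 0.01, and an unlisted gene was taken as 0. Left out was a row with no gene symbol, which held up to 3.21e-04% of the counts.

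Expected counts were rounded, genes kept by filterByExpr, libraries scaled by TMM and groups compared with edgeR 4.0.16 (quasi-likelihood test, R 4.3.3), without a block. P-values were adjusted over all 13130 genes or all 17498 transcripts. The biological coefficient of variation was 0.106. No pair of samples was a duplicate (chi-square per gene 3.37 to 17.0). In simulated data over 12997 genes, 68.2%, 86.4% and 95.5% of genes changed 1.5-fold, 2-fold and 4-fold were called, and 13.6% of calls were false, above the nominal level. Over 16648 simulated transcripts the shares called were 3.17%, 32.3% and 50%, so transcripts had little power at small changes.

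Alternatives were DESeq2 size factors and DESeq2's Wald test (1.42.0), limma (3.58.1) on log2(FPKM + 1) and log2(FPKM + 0.1), no filter on low counts, only genes with a mean FPKM of 1 or more, a replicate block, an atrial score (the mean log2 deviation of 6 atrial markers) as a covariate, and leaving out each sample. Given in full are called genes, the 10 with the smallest p, the 5 most abundant, those with a negative change, and Stat2, Irf7, Irf1 and Isg15; of the pathway lists, called genes, the 3 with the smallest p per list, and the receptors. Some genes of these lists are not reported here by name. Genes and lists were chosen with earlier results of these data known. Promoters come from RefSeq (GRCm38.p6); since the authors' build is not named, they were joined by symbol only, and no protein sequences were used here.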

Additional observations from a re-analysis of the deposited data

How the results depend on the processing

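Against 3 genes of the set called higher, 5 were called with no low-count filter, 6 with the replicate block (Stat2, Irf7 and Rsad2 added, adjusted p = 0.0417, 0.0319 and 0.0353, edgeR) and 1 with limma on either scale, and 0 to 3 when each sample in turn was left out (0 without WT 2, 1 without WT 1, WT 3 or NS-DADm 1). DESeq2 size factors, a minimum mean FPKM of 1, DESeq2's Wald test and the atrial covariate gave 3, 4, 4 and 2. For the other pathway genes, 2 called higher became 4 with no filter, 6 with the replicate block and 0 with limma on either scale, and 0 to 2 when a sample was left out. The 1 called lower became 2 with the block and 0 with limma on either scale and with the atrial covariate, and 0 to 1 when a sample was left out. No gene of the set was called lower under any of the 14 alternatives. The median log2 fold change of the set was 0.17 to 0.31 under them. No transcript was called under any alternative run for transcripts, and 10 instead of 17 genes held the response element core once CT had to follow it. With a sample left out, Mx2 ranged from -0.31 to 0.26 (log2, positive without NS-DADm 2), Ifi44 from -0.19 to 0.080 (positive without WT 2 and, at 0.012, without NS-DADm 3), Ifnar1 from -0.019 (without WT 1) to 0.082 and Ifnlr1 from -0.41 to 0.041 (without WT 3), and none of these was called. The causes were not tested. All genes called were 420, and 895 with the block; 149, 117 and 382 without WT 1, 2 or 3, and 181, 273 and 328 without NS-DADm 1, 2 or 3. Replicate numbers share no stated source, and deviations of same-numbered samples correlated at 0.0159, 0.347 and 0.398, WT 1 correlating better with NS-DADm 2 (0.173), so the numbers were not taken to pair the samples. Depth limits Mx1, Oas3 and the interferon genes most.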

Other observations

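Over all 5343 genes that averaged 10 FPKM or more, 7 stood apart upward in NS-DADm 1, at 1.5 times or more both the mean of the other NS-DADm samples and the highest of the other 5 samples, a rule chosen after the data were seen. These 7 were Igtp (3.02 times the highest other sample), Irgm2 (2.30), Gbp6 (1.65), Retnla (1.58), H2-Eb1 (1.53), Irgm1 (1.52) and H2-Aa (1.51). Igtp, Irgm2, Gbp6 and Irgm1 are interferon-inducible GTPases, H2-Eb1 and H2-Aa encode class II antigen-presenting molecules, which are also known to respond to type II interferon, and Retnla is a secreted product of macrophages and fat tissue. The same rule gave 1 gene in NS-DADm 2, Dynlt1b, and 9 in NS-DADm 3. None of the genes of NS-DADm 3 was among the interferon-stimulated genes; they were Scd1, Cfd and Car3, which are abundant in fat tissue, the atrial peptide gene Nppa, Acta1, Igfbp6, Trf, Mt2 and Tkt. Iigp1, another immunity-related GTPase and named here after its values were seen, was at 34.09, 44.94 and 27.78 FPKM in WT and 60.32, 27.31 and 30.19 in NS-DADm, highest in NS-DADm 1 as well.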
